A study of Mus musculus with 18 samples.

Results

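The comparison set epididymal white adipose tissue (eWAT, the large visceral fat pad of male mice) of high-fat diet-prone mice (HP) against that of high-fat diet-resistant mice (HR), both on the high-fat diet. It covers 6 of the 18 libraries in the series, 3 from each group, and 14430 of the 23474 genes in the table, those with 1 FPKM or more in at least 3 of the 9 eWAT libraries. FPKM is a count of sequenced fragments corrected for transcript length and library size. All mice were males of one inbred strain, written C57BL/6J in the growth protocol and C56BL/6J in the strain tag, and were 17 weeks old. They had been fed high-fat diet, or normal diet (ND) in the third group, for 12 weeks from 5 weeks of age, with 10 mice in each group at the start. The treatment protocol describes a random division into the 3 groups. The labels do not say how prone and resistant mice were told apart, nor how many mice stand behind a library, so p-values measure only the spread between these libraries. The labels name no transgene and no drug in any group.

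White fat stores triglyceride in adipocytes and releases it by lipolysis when energy is needed, and adipocytes also secrete hormones such as leptin and adiponectin. In obesity, visceral fat draws in macrophages. Some of these, called lipid-associated macrophages, gather around dying adipocytes, carry the lipid receptor Trem2 and fill with lipid that their lysosomes break down. In bulk tissue, more cells of a type and more RNA per cell cannot be told apart, and this holds for every level below.

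Several libraries held RNA of the testis and epididymis, which lie against this fat pad. A sum over spermatid markers was 1738, 22.9 and 24.2 FPKM in HP 1, HP 2 and HP 3, and 7.47, 11231 and 14.0 FPKM in HR 1, HR 2 and HR 3, with 92413, 128 and 2282 FPKM in the 3 ND libraries. HR 2 and ND 1 therefore stood far above the rest, and HP 1 and ND 3 above the remaining 5. A sum over 6 epididymis markers reached 1172 FPKM in HP 2 and 18777 FPKM in ND 1, and was at most 12.0 FPKM in the other 7. A longer list of 13 epididymis genes summed to 159 FPKM in HR 2, 50.4 FPKM in ND 3 and 15.2 FPKM in HP 1. Adipocyte markers (Adipoq, Fabp4, Plin1 and Cidec) were present in every library, summing to 17558, 16438 and 14984 FPKM in the HP libraries and 22645, 4759.9 and 19100.4 FPKM in the HR libraries, with HR 2 the lowest of the 6. In the 7-library fit, which still holds HP 1, the spermatid list had a median log2 difference, HP minus HR, of 2.14, and none of its 15 tested members reached an adjusted p of 0.05 in limma. With 9 libraries that median was -0.97. Across the tested genes, HR 2 correlated with the other HP and HR libraries at r = 0.37 to 0.58, whereas HR 1 and HR 3 correlated at r = 0.98 and the HP libraries with each other at r = 0.93 to 0.98. Relative sequencing depth could be read from the steps between low values for 3 of the other 5 HP and HR libraries: HP 3, HR 1 and HR 2 stood at 0.953, 1.09 and 0.953 times the depth of HR 3.

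**Figure D1:**
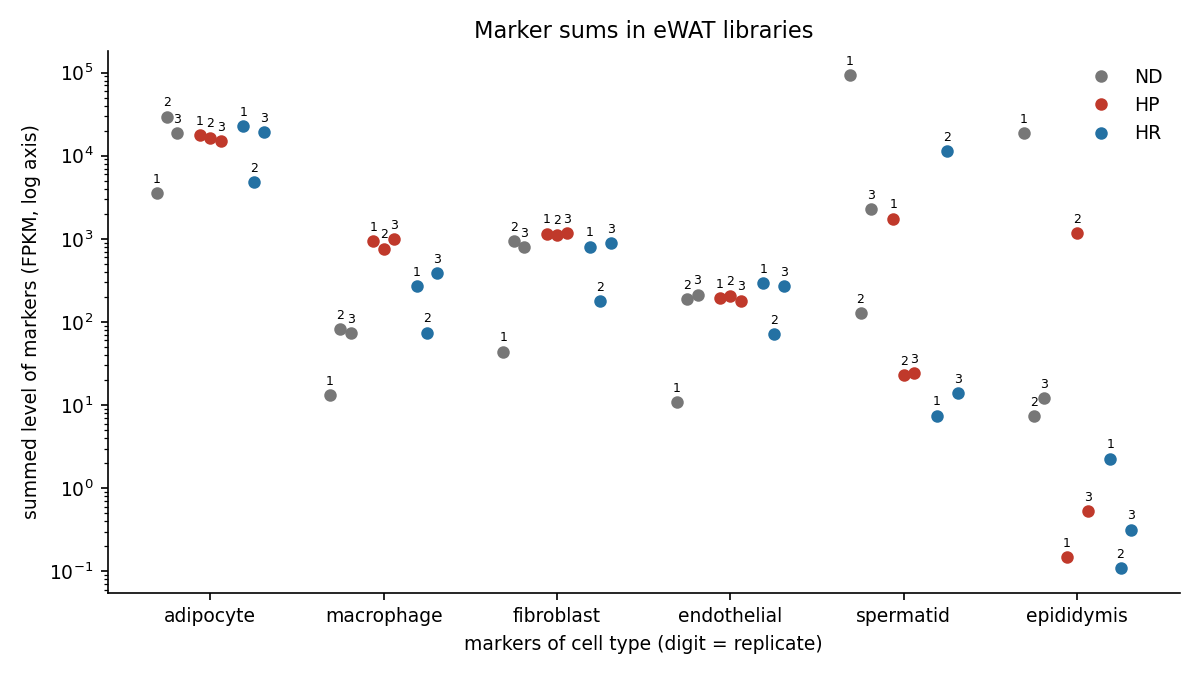
Summed FPKM of the marker genes of 6 cell types (log axis) in each eWAT library, with 1 point per library and the groups ND, HP and HR side by side. Spermatid markers are highest in ND 1 and HR 2, and the 3 HP libraries lie above the 3 HR libraries in macrophage markers.

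The comparison was therefore fitted both with and without the libraries that stood apart. Leaving out ND 1 together with HR 2 was decided with earlier results of these data known. With all 9 eWAT libraries, 0 of 14430 genes (0.0%) passed an adjusted p of 0.05 in limma, and the smallest adjusted p was 0.649. At an unadjusted p under 0.05 there were 679 genes (4.71%), of which 617 were higher and 62 lower in HP. Without HR 2 and ND 1, the libraries with the most spermatid transcripts, 843 of 13054 genes (6.46%) passed, 549 higher (4.21%) and 294 lower (2.25%) in HP. All HP libraries lay above all HR libraries of the fit in 16.7% of genes with 9 libraries and 28.2% with 7, and below them in 5.59% and 21.0%. The median standard error of a log2 difference was 0.20 in the 7-library fit and 0.54 in the 9-library fit.

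The calls rest on few libraries, with 3 HP and only 2 HR in the 7-library fit. With HR 2 alone left out and ND 1 kept, 0 of 13891 genes passed and 533 had an unadjusted p under 0.05. With the HP libraries, HR 1 and HR 3 alone and no ND library, 1970 genes passed, 1195 higher and 775 lower. No gene passed when HP 1, HP 3, HR 1 or HR 3 was left out of the 7, with 1828 to 2433 genes at an unadjusted p under 0.05, so each call named below is lost in those 4 fits, and 133 higher and 46 lower genes passed without HP 2. Leaving out ND 2 gave 1099 higher and 730 lower genes, and leaving out ND 3 gave 1153 and 769. Quantile normalization moved the split to 337 higher and 400 lower. Below, a gene "passed", rose or fell where its adjusted p was under 0.05 in the 7-library fit. Differences are HP minus HR on the log2(FPKM + 1) scale with their standard error. Where HP and HR levels are given, HR 2 is included although that fit does not use it. Counts of list members that rose or fell stand beside 4.21% and 2.25% of all genes tested.

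**Figure D2:**
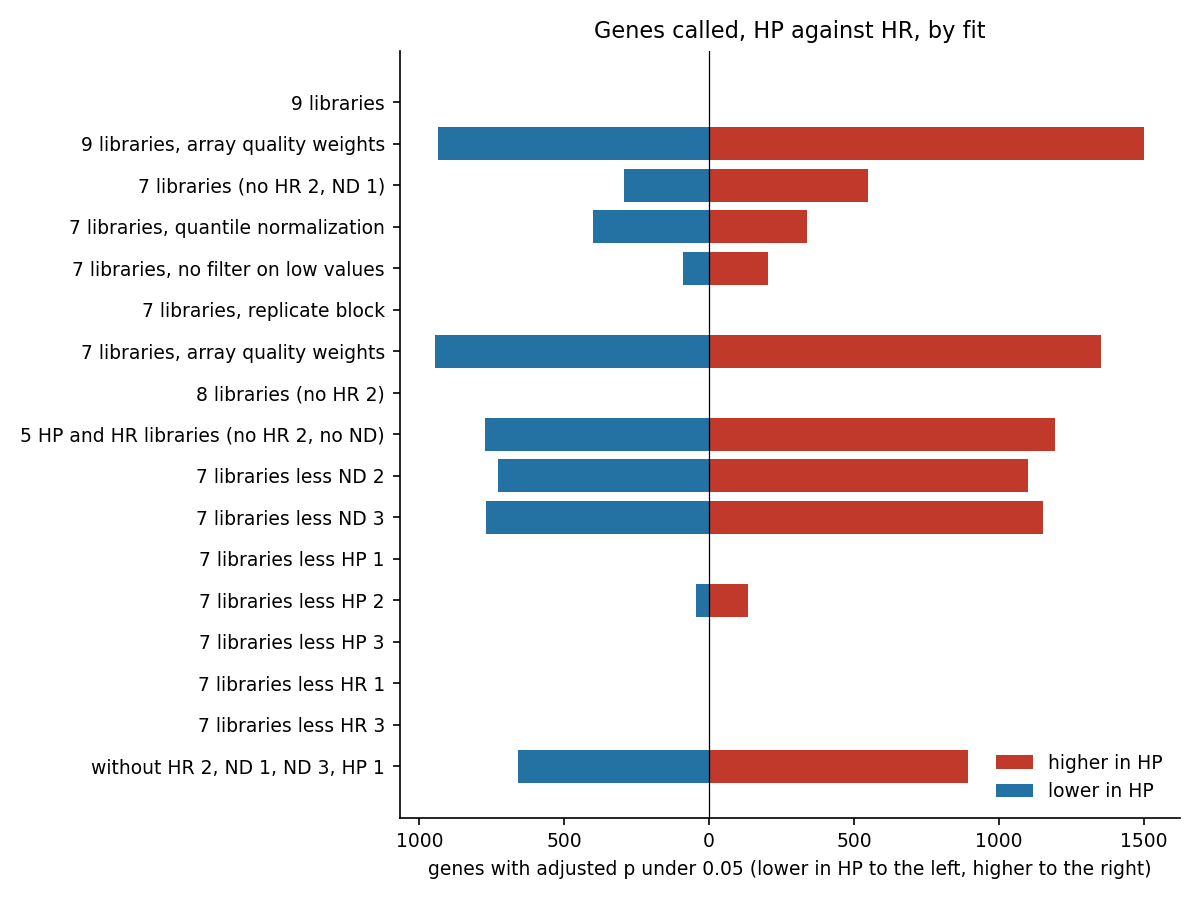
Number of genes passing an adjusted p of 0.05 in each fit of HP against HR, with genes higher in HP drawn to the right and genes lower in HP to the left. The 9-library fit and the 7-library fits without HP 1, HP 3, HR 1 or HR 3 have no bar, and the 7-library fit has 549 genes higher and 294 lower.

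HR 2 did not enter the fit that called these genes, and its adipocyte marker sum was the lowest of the 6 libraries. Of the 549 higher genes, HR 2 lay below all 3 HP libraries in 517 (94.2%), against 54.5% of all 13054 genes tested. Of the 294 lower genes, HR 2 lay above all 3 HP libraries in 27 (9.18%), against 36.3% of all genes tested. It lay below them in 249 (84.7%), against 54.5%. The genes were called on the same HP libraries, so these counts are a description and give no independent support. In the 9-library fit, which holds HR 2, the median difference of the 549 genes was 1.43, against 1.03 with 7 libraries, and that of the 294 genes was -0.35, against -0.92. The part of the low adipocyte share of HR 2 in these counts was not tested. As a measure chosen after the data were seen, marker sums were also taken per 100 FPKM of adipocyte markers within the same library. Macrophage markers (Adgre1, Cd68, Csf1r and Fcgr1) stood at 5.34, 4.60 and 6.63 in HP and 1.20, 1.55 and 2.02 in HR 1, HR 2 and HR 3. All 3 HP libraries lay above all 3 HR libraries in this ratio, which gives the smallest p that 3 against 3 allows (exact permutation test, two-sided p = 0.1). Fibroblast markers gave 6.59, 6.79 and 7.83 in HP and 3.56, 3.75 and 4.62 in HR by the same measure, again without overlap (exact permutation p = 0.1), and endothelial markers gave 1.09, 1.26 and 1.21 in HP and 1.29, 1.50 and 1.41 in HR, lower in HP without overlap (exact permutation p = 0.1), although their plain sums differed by 0.12 on the log2 scale, HP minus HR, over all 6 libraries and by -0.54 without HR 2. Mast cell markers (Kit, Cpa3 and Mcpt4) gave 0.0872, 0.0991 and 0.142 in HP and 0.0445, 0.138 and 0.0370 in HR by this measure and overlapped through HR 2 (exact permutation p = 0.3).

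Lipid-associated macrophage genes had the highest median of any list with a member that passed. Of 20 tested, 16 rose and none fell, with a median difference of 1.46 against 0.04 over all genes. Trem2, the lipid receptor that marks these cells, stood at 338, 232 and 365 FPKM in HP and 98.3, 12.1 and 95.5 FPKM in HR 1, HR 2 and HR 3. Every HP library was above every HR library, and the difference was 1.65 ± 0.20 (adjusted p = 0.0178). Gpnmb, a membrane glycoprotein of lipid-laden macrophages, read 874, 699 and 958 FPKM in HP and 246, 36.5 and 293 FPKM in HR, again without overlap (1.64 ± 0.21, adjusted p = 0.0182). Mmp12, macrophage elastase, had 969.8, 828 and 1379 FPKM in HP and 232, 41.5 and 259.9 FPKM in HR and was at most 9.70 FPKM on normal diet. Its difference of 2.07 ± 0.26 (adjusted p = 0.0182) was the largest in the list. Ctsk, the collagen-cleaving protease cathepsin K, rose by 1.78 ± 0.18, Atp6v0d2, a proton pump subunit, by 1.71 ± 0.16, and Lipa, the lysosomal acid lipase, by 1.52 ± 0.18. The 4 members that did not pass were Spp1 (1.63), Fabp5 (0.68), Apoe (-1.01) and Acp5 (-0.50). Without HP 1, HP 3, HR 1 or HR 3 no member passed, 11 rose without HP 2, and the list's median lay between 1.32 and 1.64 in those 5 fits and was 2.13 with 9 libraries.

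General macrophage genes were higher in HP as well, and the 4 macrophage markers summed to 938, 757 and 993 FPKM in HP and 271, 74.0 and 387 FPKM in HR, without overlap. Of 24, 20 rose and none fell, with a median of 1.26. Cd68, a lysosomal glycoprotein of macrophages, stood at 532, 398 and 532 FPKM in HP and 129, 27.6 and 171 FPKM in HR (1.69 ± 0.21, adjusted p = 0.0182). Adgre1, which encodes the F4/80 antigen, had 213, 195 and 259 FPKM in HP and 63.9, 23.4 and 102 FPKM in HR (1.44 ± 0.22, adjusted p = 0.0231). Neither gene overlapped between groups, and both were lowest in HP 2 among the HP libraries. Itgax, the CD11c integrin chain found on macrophages of obese fat, read 102, 77.8 and 127 FPKM in HP and 31.1, 4.38 and 39.5 FPKM in HR (1.49 ± 0.24, adjusted p = 0.0254). Ms4a7, a membrane protein of macrophages, rose by 1.89 ± 0.17. Mertk (0.01), Cx3cr1 (0.65), Ccr2 (0.08) and Aif1 (1.27) did not pass. Without HP 2, 9 members rose, and the list's median lay between 1.11 and 1.38 in the 5 fits that leave out 1 HP or HR library and was 1.84 with 9 libraries.

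Markers of tissue-resident macrophages gave a smaller share, 4 of 16 rising and none falling, with a median of 0.24 (0.62 with 9 libraries). Folr2, a folate receptor, rose by 1.31 ± 0.17, and Mrc1, the mannose receptor CD206, by 0.97 ± 0.20. Retnla, secreted by alternatively activated macrophages, had 408, 320.2 and 189.5 FPKM in HP and 818, 162 and 693 FPKM in HR and did not pass (-1.37 ± 0.37, adjusted p = 0.0828). Its HP libraries lay below HR 1 and HR 3 but not below HR 2.

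Among 23 tested chemokines and receptors, 7 rose and none fell. Ccl2, the ligand that draws monocytes into tissue, stood at 39.0, 34.3 and 49.5 FPKM in HP and 16.7, 2.72 and 14.3 FPKM in HR, without overlap (1.34 ± 0.18, adjusted p = 0.0182). Ccl3 rose by 1.35 ± 0.24 and its receptor Ccr1 by 0.81 ± 0.18. Ccl3, like Tnf below, passed the filter of 1 FPKM through the HP libraries alone. Among 18 cytokines and receptors 2 rose and none fell. Il1rn, the natural antagonist of the interleukin 1 receptor, went from 14.0, 3.82 and 17.7 FPKM in HR to 56.9, 58.2 and 74.3 FPKM in HP (1.93 ± 0.22, adjusted p = 0.0177), and Tgfb1 rose by 0.96 ± 0.15. Tnf, a low-level transcript here, had 2.11, 1.91 and 2.19 FPKM in HP and 0.856, 0.511 and 0.774 FPKM in HR and did not pass (0.76 ± 0.21, adjusted p = 0.0811).

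Other blood cell lists differed from one another. Of 9 neutrophil and mast cell genes, 4 rose, all of them mast cell proteases: Cpa3 (1.76 ± 0.23), Mcpt4 (1.79 ± 0.27), Tpsb2 (1.54 ± 0.27) and Cma1 (1.48 ± 0.29). Mcpt4 read 6.26, 6.68 and 11.1 FPKM in HP and 1.70, 0.149 and 1.40 FPKM in HR. Its groups did not overlap. Kit, the stem cell factor receptor of mast cells, and Hdc, their histamine-forming enzyme, had differences of the opposite sign that did not pass (-0.37 ± 0.37 and -0.71 ± 0.65). Without HP 2, 1 of 8 tested members of this list rose. No neutrophil gene of the list passed. The summed neutrophil markers were still higher in HP without overlap, at 54.7, 61.7 and 53.1 FPKM against 28.9, 7.18 and 47.8 FPKM in HR. None of 12 MHC class II genes passed, with a median of 0.22 (0.79 with 9 libraries), and H2-Ab1 stood at 619, 439.6 and 482 FPKM in HP and 435, 117 and 430.4 FPKM in HR. None of 10 T, B and natural killer cell genes passed, with a median of -0.10 (0.053 with 9 libraries). The B cell marker Ms4a1 was at 0 in all 6 HP and HR libraries. Of 22 interferon response genes, 1 rose (Oas1a, 0.97 ± 0.16), against 4.21% of all genes tested.

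Of 41 lysosomal genes, 14 rose and none fell, with a median of 0.56 (1.08 with 9 libraries). Gla, alpha-galactosidase A, which breaks down glycolipids, went from 6.40, 1.75 and 7.74 FPKM in HR to 20.7, 21.2 and 27.9 FPKM in HP (1.58 ± 0.18, adjusted p = 0.0177). Gusb, beta-glucuronidase, had 185, 154 and 208 FPKM in HP and 72.8, 16.0 and 89.6 FPKM in HR (1.15 ± 0.16, adjusted p = 0.0198). Neither overlapped between groups. Subunits of the proton pump that acidifies lysosomes, Atp6v1a (1.01 ± 0.18) and Atp6v1b2 (1.02 ± 0.12), rose as well. Without HP 2, 6 members passed, and none without HP 1, HP 3, HR 1 or HR 3.

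Promoters of 4 of these genes are shown because they hold letters that macrophage and lysosome regulators are known to read, and they were picked after the matches were known. PU.1, the product of Spi1 (which rose by 1.28), reads a core written GAGGAAG, and TFEB and its relatives, master regulators of lysosome genes, read TCACGTGA, which contains the E-box CACGTG. Each run of 300 bases covers 250 bases before to 50 bases after the transcription start, from RefSeq on GRCm38.p6, read along the gene's strand, with matches on either strand in capitals (GAGGAAG appears as CTTCCTC on the other strand).
Mmp12 (chr9:7344147-7344446, plus strand): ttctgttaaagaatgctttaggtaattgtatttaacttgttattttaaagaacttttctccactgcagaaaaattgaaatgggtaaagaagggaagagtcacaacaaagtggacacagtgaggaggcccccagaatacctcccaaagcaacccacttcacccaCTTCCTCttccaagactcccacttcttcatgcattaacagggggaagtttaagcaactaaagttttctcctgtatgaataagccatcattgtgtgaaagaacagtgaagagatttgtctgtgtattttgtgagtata
Trem2 (chr17:48346151-48346450, plus strand): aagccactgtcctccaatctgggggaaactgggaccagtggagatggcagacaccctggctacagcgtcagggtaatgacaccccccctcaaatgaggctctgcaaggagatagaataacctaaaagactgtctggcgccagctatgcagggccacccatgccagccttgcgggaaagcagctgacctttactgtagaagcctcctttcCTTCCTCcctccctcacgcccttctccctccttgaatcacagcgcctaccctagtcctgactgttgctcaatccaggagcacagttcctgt
Ctsk (chr3:95498960-95499259, plus strand): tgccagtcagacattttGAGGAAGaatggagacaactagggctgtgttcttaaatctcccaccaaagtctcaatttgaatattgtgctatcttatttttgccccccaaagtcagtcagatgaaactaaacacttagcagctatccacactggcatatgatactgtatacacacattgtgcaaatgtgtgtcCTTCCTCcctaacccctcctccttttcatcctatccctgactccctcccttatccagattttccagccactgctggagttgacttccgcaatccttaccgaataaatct
Gla (chrX:134600956-134601255, minus strand): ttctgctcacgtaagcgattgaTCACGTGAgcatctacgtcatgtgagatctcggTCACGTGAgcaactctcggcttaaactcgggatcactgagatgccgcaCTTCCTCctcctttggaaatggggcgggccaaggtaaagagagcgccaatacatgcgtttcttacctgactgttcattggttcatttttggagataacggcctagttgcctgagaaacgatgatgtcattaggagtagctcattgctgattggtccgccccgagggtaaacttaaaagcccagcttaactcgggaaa

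GAGGAAG stood in 109 of 485 promoters (22.5%) of the higher genes that matched the table by symbol (409 of 549 genes), in 47 of 303 promoters (15.5%) of the lower genes, in 13.7% of the 12995 promoters of tested genes and in 13.6% of all 32851 promoters. In the lipid-associated macrophage list it stood in 7 of 21 promoters (33.3%). TCACGTGA was found in 6 of 44 lysosomal promoters (13.6%) against 1.71% for tested genes and 0.974% of all promoters. CACGTG, which counts those 6 again, stood in 10 of the 44 (22.7%) against 9.67% for tested genes and 7.15% of all, and in 8.87% of the promoters of higher genes. The C/EBP palindrome TTGCGCAA was found in 0.183% of all promoters, in 0 of the 303 of lower genes and in 1 of 27 (3.7%) of the adipocyte list. These shares describe letters in a window and were not tested.

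Most collagen and matrix protein genes did not pass. Of 38 collagens and matrix proteins, 4 rose and 1 fell, with a median of 0.13 (0.76 with 9 libraries). Over all genes tested, 4.21% rose and 2.25% fell. Lum (lumican, a collagen-binding proteoglycan) stood at 141, 153 and 153 FPKM in HP and 47.1, 11.5 and 68.6 FPKM in HR (1.37 ± 0.22, adjusted p = 0.0267). Postn, Col8a1 and Loxl2 rose by 0.99 ± 0.12, 1.31 ± 0.23 and 0.76 ± 0.14, and Eln, which encodes elastin, fell (-1.19 ± 0.22). Col3a1 had 895, 715 and 818 FPKM in HP and 347, 79.7 and 519.6 FPKM in HR without overlap but did not pass (adjusted p = 0.0551). Of 24 matrix proteases and inhibitors, 7 rose and 2 fell. The inhibitors parted: Timp1 went from 6.41, 1.87 and 7.52 FPKM in HR to 42.6, 22.0 and 39.3 FPKM in HP (2.11 ± 0.29, adjusted p = 0.0183), whereas Timp4 read 40.8, 48.6 and 33.5 FPKM in HP and 168, 31.7 and 125 FPKM in HR (-1.81 ± 0.22, adjusted p = 0.0177). Timp4 in HR 2 lay below the HP libraries, and in HR 1 and HR 3 above them.

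Of 37 cell cycle genes, 11 rose and none fell, and all 37 differences were above 0 (median 1.06). With 9 libraries the median was 0.34 and 11 of 38 differences were below 0, and the list summed to 917 FPKM in HR 2, above the 496, 389 and 456 FPKM of the HP libraries. Mki67, a marker of dividing cells, stood at 7.64, 8.41 and 7.78 FPKM in HP and 2.20, 5.51 and 3.52 FPKM in HR (1.23 ± 0.21, adjusted p = 0.0274). Here HR 2 lay above HR 1 and HR 3, though below all HP libraries. For Top2a, a topoisomerase of dividing cells, HR 2 was the highest of the 6 at 37.8 FPKM, against 19.8, 13.8 and 16.0 FPKM in HP and 5.01 and 5.26 FPKM in HR 1 and HR 3. Spermatid markers were also highest in HR 2, and the part of testis RNA in these genes was not tested. Without HP 2, 3 members rose. Leaving out the 4 libraries highest in spermatid transcripts (HR 2, ND 1, ND 3 and HP 1) left 25 of 36 tested members rising. In that fit 893 of all 12378 genes tested were higher in HP at an adjusted p under 0.05.

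Of 20 endoplasmic reticulum stress genes, 5 rose, among them Atf3, a stress-induced transcription factor, at 130.0, 115 and 151 FPKM in HP and 36.8, 5.32 and 44.8 FPKM in HR (1.67 ± 0.17, adjusted p = 0.0177). Of 26 oxidative stress genes, 4 rose, including Hmox1 (1.22 ± 0.17), the haem-degrading enzyme, and Cybb (1.27 ± 0.22), the catalytic chain of the phagocyte oxidase, and Epas1 fell (-0.64 ± 0.12). Of 25 cholesterol genes, 5 rose: Msmo1 (1.21 ± 0.14), Fdps (1.01 ± 0.16), Cyp51 (0.99 ± 0.19) and Idi1 (0.91 ± 0.16) of the synthesis pathway, and Soat1 (1.26 ± 0.26), which esterifies cholesterol. In the serotonin list 2 of 7 rose. The counts of these lists stand beside 4.21% rising and 2.25% falling over all genes tested. Tph2, the enzyme that starts serotonin synthesis in neurons, had 36.1, 37.8 and 43.1 FPKM in HP and 5.80, 1.77 and 12.1 FPKM in HR (2.08 ± 0.34, adjusted p = 0.0256), and Htr2b, a serotonin receptor, 7.14, 6.40 and 12.1 FPKM in HP and 0.928, 0.180 and 1.40 FPKM in HR (2.10 ± 0.29, adjusted p = 0.0187). For both, all HP libraries lay above all HR libraries.

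Adipocyte genes went the other way. Of 25, 9 fell and 1 rose, with a median of -0.78. Cfd, the complement factor adipsin secreted by adipocytes, stood at 337, 349 and 251 FPKM in HP and 2165, 323 and 1201 FPKM in HR 1, HR 2 and HR 3, with 3048, 4074 and 3626 FPKM on normal diet. The HP libraries lay below HR 1 and HR 3 and around HR 2, whose adipocyte markers were also low (-2.38 ± 0.28, adjusted p = 0.0177). Car3, a carbonic anhydrase abundant in adipocytes, fell (-1.74 ± 0.28), as did Adrb3, the adrenoceptor through which catecholamines trigger lipolysis (-1.97 ± 0.36). HR 2 lay below the HP libraries for Car3 (1898 FPKM) and within their range for Adrb3 (78.3 FPKM). Plin1, the coat protein of the fat droplet, had 343, 314 and 341 FPKM in HP and 661, 119.9 and 678 FPKM in HR (-1.01 ± 0.11, adjusted p = 0.0177). Metrnl, a secreted factor, was the member that rose (0.97 ± 0.15). Adiponectin (Adipoq) read 1027, 1037 and 908 FPKM in HP and 1860.1, 346 and 1556 FPKM in HR and did not pass (-0.78 ± 0.21, adjusted p = 0.0828). Leptin (Lep), which tracks fat mass, read 899, 1196 and 1186 FPKM in HP and 798, 142 and 1193 FPKM in HR, overlapping between HP and HR 3 (0.15 ± 0.22, adjusted p = 0.733). Pparg, the master regulator of adipocyte formation, did not pass (-0.49 ± 0.15, adjusted p = 0.115). The summed macrophage markers moved opposite to this list, and the part of the cell mixture in these falls was not tested. Without HP 1, HP 3, HR 1 or HR 3 no member passed, and 3 fell and 1 rose without HP 2, while the list's median lay between -0.79 and -0.70 in those 5 fits, none of which holds HR 2. With 9 libraries the median was -0.13, and no member had all HP libraries below all 3 HR libraries.

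Of 26 lipolysis and storage genes, 7 fell and none rose (median -0.55). Lipe (hormone-sensitive lipase) stood at 417, 354 and 366 FPKM in HP and 737, 264 and 694 FPKM in HR (-0.92 ± 0.13, adjusted p = 0.0186), and Pnpla2 (adipose triglyceride lipase) fell (-0.86 ± 0.14). For Gpat3, which adds the first fatty acid to glycerol phosphate, HR 2 was level with the other HR libraries: 14.3, 14.9 and 12.4 FPKM in HP and 33.6, 35.7 and 35.8 FPKM in HR (-1.27 ± 0.12, adjusted p = 0.0177). Its HP libraries lay below all 3 HR libraries. Of 30 insulin and glucose genes, 9 fell and 1 rose (median -0.56). Slc2a4, the insulin-responsive glucose transporter GLUT4, had 25.6, 28.8 and 20.0 FPKM in HP and 51.4, 12.1 and 65.3 FPKM in HR (-1.21 ± 0.27, adjusted p = 0.0483). Pck1, which feeds glycerol synthesis in fat, also fell (-1.95 ± 0.20, adjusted p = 0.0177). It had 266, 246 and 227 FPKM in HP and 1186, 181 and 763 FPKM in HR, and differed by -1.15 ± 1.27 with 9 libraries. For Lipe, Pnpla2, Slc2a4 and Pck1, HR 2 lay below all HP libraries. Irs2, an insulin receptor substrate, fell as well (-1.14 ± 0.18), and HR 2 again lay below all HP libraries. Grb14, an inhibitor of the insulin receptor, was the member that rose (0.99 ± 0.15). Without HP 2, 1 member of each of these lists fell and none rose. With 9 libraries the medians were -0.16 for the lipolysis and storage list and -0.08 for the insulin and glucose list, where 14 differences were above 0 and 16 below.

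Of 20 fatty acid synthesis genes, 1 rose and 2 fell, against 4.21% rising and 2.25% falling over all genes tested. The median of this list changed sign over the alternatives of the 7-library fit (-0.092 to 0.038) and was 0.44 with 9 libraries. Scd1, the desaturase, stood at 3389, 4571 and 3545 FPKM in HP and 9094, 1695 and 9894 FPKM in HR (-1.32 ± 0.23, adjusted p = 0.0284), while Fasn, fatty acid synthase, had 393, 319 and 326 FPKM in HP and 286, 89.9 and 354 FPKM in HR (0.11 ± 0.16, adjusted p = 0.727). Of 24 branched-chain amino acid genes, 3 fell, Ivd (-1.08 ± 0.13), Bckdha (-0.88 ± 0.17) and Pccb (-0.76 ± 0.10). HR 2 lay within the range of the HP libraries for Ivd and below them for Bckdha and Pccb. None of 22 fatty acid oxidation genes and none of 18 citric acid cycle genes passed, with medians of -0.26 and -0.15, and 1 of 70 nuclear respiratory chain genes did (Cox5a, 1.03 ± 0.23). With 9 libraries the medians of the fatty acid oxidation and citric acid cycle lists had the opposite sign, 0.35 and 0.15, and that of the branched-chain amino acid list was 0.014 against -0.51 with 7.

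Drug-metabolising and steroid enzymes fell in 6 of 21 and rose in 2 (median -0.59). Cyp2e1, a cytochrome P450 also known from liver, stood at 106, 111 and 65.3 FPKM in HP and 679, 136 and 573 FPKM in HR, against 102, 1612 and 1492 FPKM in the ND libraries (-2.76 ± 0.24, adjusted p = 0.0163). Its HP libraries lay below all 3 HR libraries, as did those of Agt, which encodes angiotensinogen: 15.4, 14.7 and 8.31 FPKM in HP and 72.1, 75.9 and 59.7 FPKM in HR (-2.31 ± 0.26, adjusted p = 0.0177). Agt was the only member of 9 renin-angiotensin genes to pass. Without HP 2, 2 of the drug-metabolising and steroid enzymes fell and none rose. With 9 libraries the median of that list was -0.0015, with 10 differences above 0 and 11 below.

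Of 24 genes in the endothelial list, 5 fell and none rose (median -0.64, and -0.14 with 9 libraries). The list also holds Vegfa, a secreted factor that acts on endothelium and is not a marker of it. Vegfa, the angiogenic factor, had 81.1, 96.4 and 62.2 FPKM in HP and 221, 34.6 and 164 FPKM in HR (-1.27 ± 0.22, adjusted p = 0.0284), HR 2 lying below the HP libraries. Cd300lg and Robo4, both of vessel endothelium, fell too (-1.02 ± 0.18 and -1.09 ± 0.22). None of this list passed without any single HP or HR library of the 7. Complement genes split, 4 rising and 3 falling of 18, the receptor C3ar1 rising by 1.78 ± 0.25 and C2, a protease of the classical pathway, falling (-1.11 ± 0.15). Of 18 clock genes, 2 fell, Per3 (-0.88 ± 0.16) and Cry2 (-0.82 ± 0.17). The shares over all genes tested were 4.21% rising and 2.25% falling. None of 12 thermogenic genes passed, and Ucp1, the uncoupling protein of brown fat, was not tested in the 7-library fit, with 0.475, 0.0322 and 5.05 FPKM in HP and 32.5, 0.0846 and 0.0410 FPKM in HR.

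**Figure D3:**
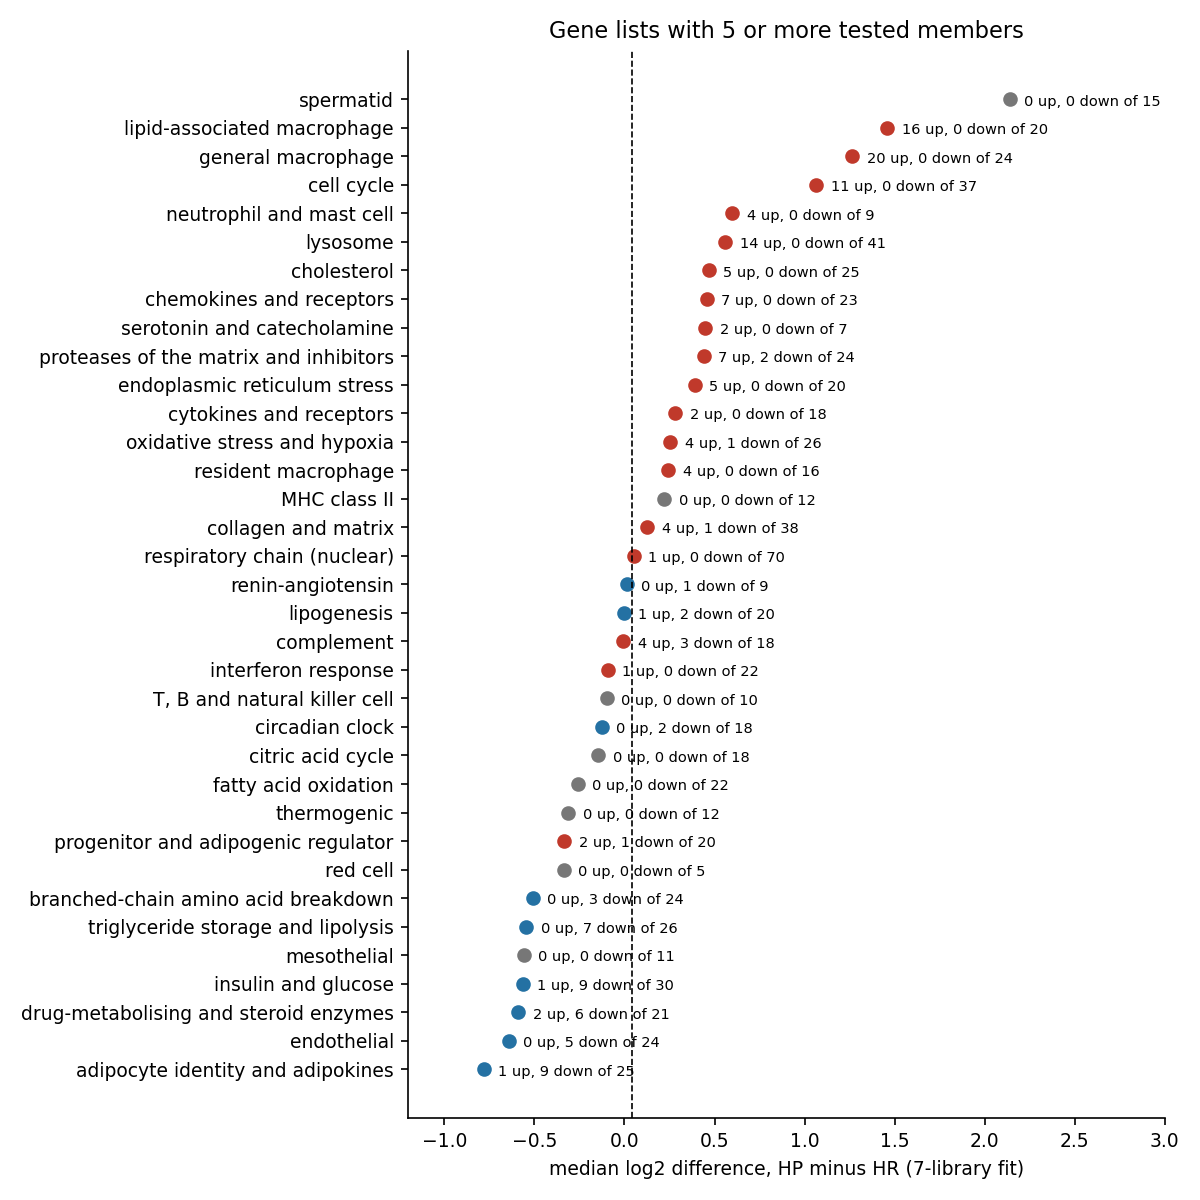
Median log2 difference, HP minus HR, of each gene list in the 7-library fit (x axis), with the numbers of members that rose and fell printed beside each point and a dashed line at the median of all genes tested. Lipid-associated macrophage genes lie furthest to the right among lists with a member that rose or fell, and adipocyte genes furthest to the left. The spermatid list, with none, lies further right.

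Over all 549 higher genes the median difference was 1.03, with 304 at 2-fold or more and 9 at 4-fold or more, and over the 294 lower genes the median size was 0.92, with 113 and 4. The largest rises, among genes with a mean of 5 FPKM or more, were Rnaset2b (2.69 ± 0.20) and Rnaset2a (2.69 ± 0.19). These encode near-identical RNases and could have split reads. Both passed the filter of 1 FPKM through the HP libraries alone. In ND 1, which the fit does not use, they stood at 6.98 and 8.65 FPKM. Scand1 (2.66 ± 0.48) and Zranb3 (2.58 ± 0.38) came next. Lair1, an inhibitory receptor of immune cells, and Hpgds, a prostaglandin D synthase, rose by 2.05 ± 0.27 and 1.98 ± 0.22. Among the largest falls outside the genes above were Eif4ebp3 (-2.22 ± 0.34), Mycl (-1.90 ± 0.15), Fam13a (-1.86 ± 0.26) and Eci3 (-1.83 ± 0.29). HR 2 lay within the range of the HP libraries for Eif4ebp3 (0.634 FPKM), Mycl (2.06 FPKM) and Fam13a (4.21 FPKM). For Eci3 it stood at 2.27 FPKM, above the HP libraries (0.944, 2.13 and 2.06 FPKM) and below HR 1 and HR 3.

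**Figure D4:**
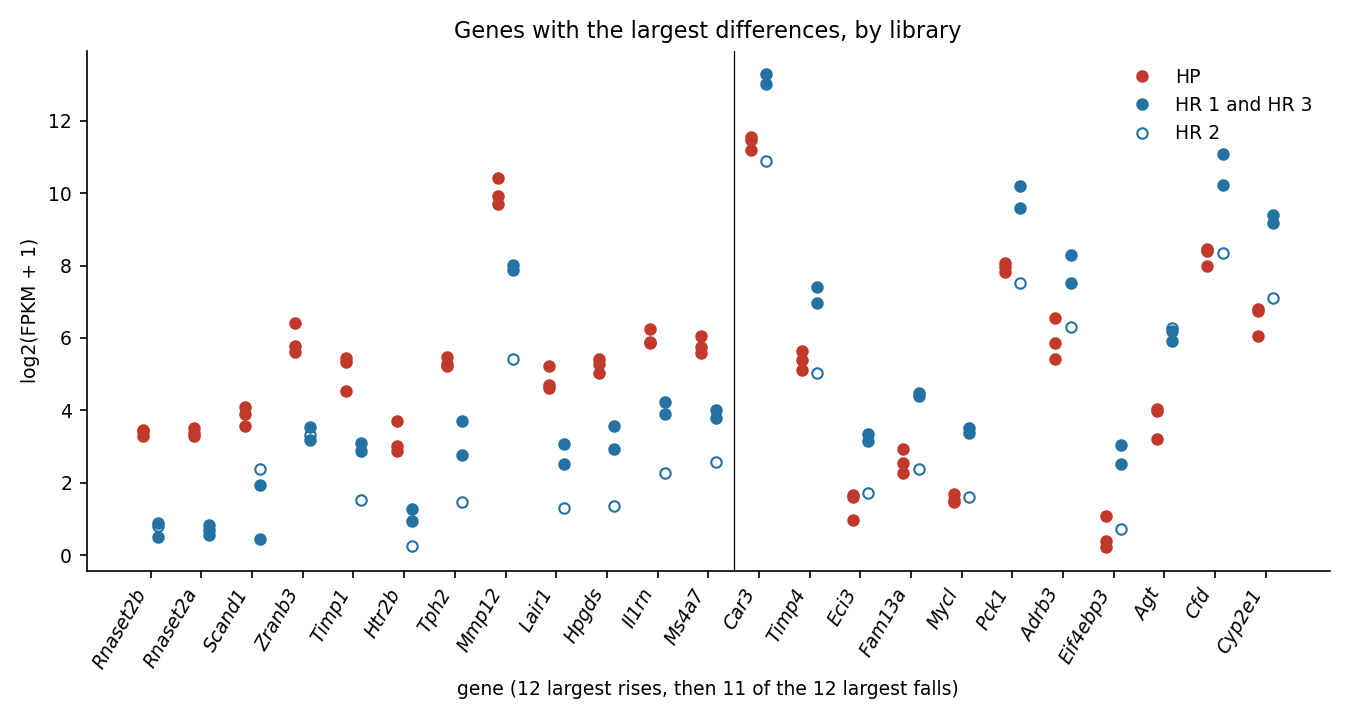
Levels (log2 of FPKM + 1) of the 12 genes with the largest rise and 11 of the 12 with the largest fall in the 7-library fit, 1 point per HP or HR library. Open points mark HR 2, which the fit does not use: it lies above the HP libraries for Cyp2e1 and Agt, and within or below them for Cfd and Timp4.

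**Figure D5:**
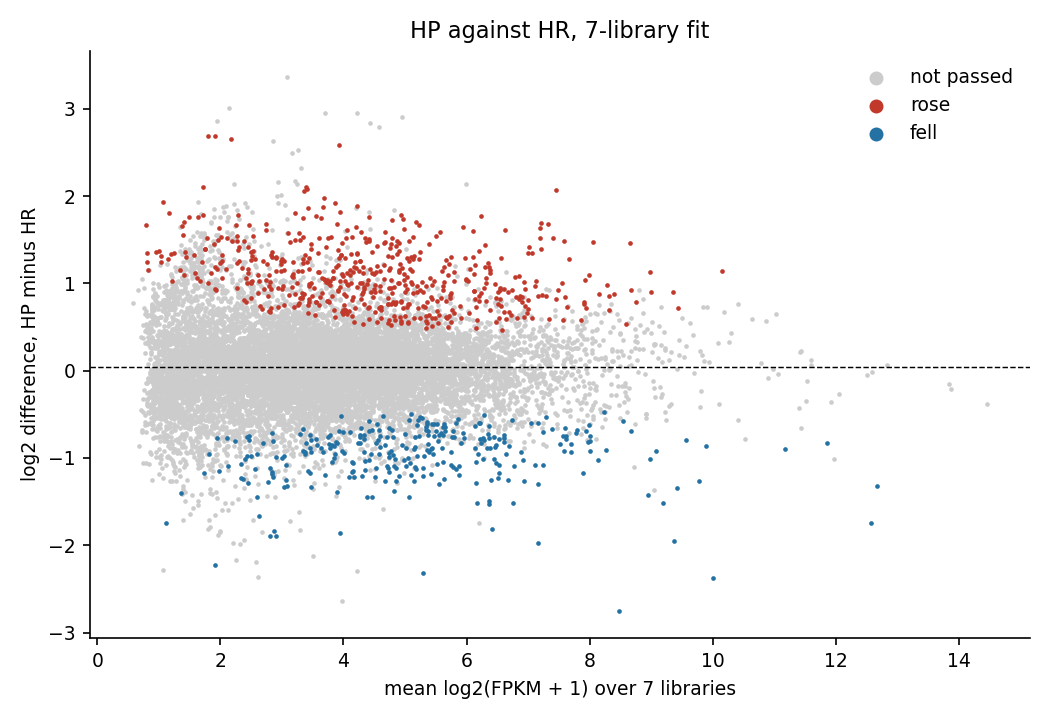
Mean level over the 7 libraries (x axis, log2 of FPKM + 1) against the log2 difference HP minus HR (y axis) for the 13054 genes tested, with the 549 genes that rose and the 294 that fell coloured. Both sets lie on either side of a median near 0.04.

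No gene passed in the 9-library fit, where the smallest p values on the higher side belonged to Htr2b, Oit3, Zranb3, Prkcb, Ms4a7 and Gas7. Oit3, whose 3 HP libraries (4.16, 6.37 and 5.37 FPKM) lay above the 3 HR libraries (0.984, 1.05 and 0.699 FPKM), differed by 1.71 ± 0.28 with an adjusted p of 0.689 in limma. On the lower side they included Agt, Spaca6, Pdk2, Celsr2 and Ccnd3. Agt differed by -2.38 ± 0.31 (adjusted p = 0.649).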

How the data were processed

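RNA from epididymal fat was sequenced in 9 libraries, 3 each from the ND, HP and HR mice. The libraries were poly(A) RNA libraries made with the Illumina TruSeq kit, per the labels' protocols. The values are FPKM in a single table that the authors deposited. The submitters' processing notes name CASAVA 1.8.2, STAR 2.4.0 and Cufflinks 2.1.1. No source used here gives the genome build or annotation. Of 23474 gene IDs, 22671 were named from the GENCODE and NCBI tables and the other 803 kept their ID. Counts were not used here, so fragment depth is unknown except in relative terms for the libraries given above, and the precision of low values cannot be given.

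Levels were put on the log2(FPKM + 1) scale, and HP was set against HR by moderated tests with a variance trend (limma 3.58.1, R 4.3.3), once with 9 libraries and once with 7 (without HR 2 and ND 1, a set chosen with earlier results of these data known; leaving out HR 2 alone is given as an alternative). ND libraries entered the fit to estimate the spread, and they also counted in the filter that decides which genes are tested. Genes needed 1 FPKM or more in at least 3 libraries of the fit, and p-values were adjusted by the Benjamini-Hochberg method over all genes tested at a threshold of 0.05. Replicates are separate samples by their labels, and their numbers were not used to pair them. The fitting was also run on simulated data with noise drawn independently for each library. No simulated library stood apart as HR 2 and ND 1 do, so that run does not cover such a case. Relative depth was read where the commonest ratio of low values to those of HR 3 stood at least 5 times above the median bin, a threshold set after the ratios were seen. Single sums over markers were compared with exact permutation tests over 3 against 3 libraries, which cannot go below p = 0.1.

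The members, the 38 gene lists (865 genes, of which 7 are not in the table) and the named genes were chosen with earlier results of these data known. The text names, for each direction, at most 12 genes by size of difference among those that passed, had a mean of 5 FPKM or more and did not overlap, a fixed set of 21 genes, and at most 8 members of each list. Where none passed (9 libraries), it names the 6 genes of smallest p in each direction. Members that complete a count of 5 or fewer were named after their values were seen. No set test was run, so list counts and medians describe the lists. Promoter letters were matched with Python 3.11.15 in RefSeq promoters of GRCm38.p6, by gene symbol, and the printed promoters were picked after the matches were seen. Liver libraries were not analysed here, and 3 genes that these rules name are not reported here.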

Additional observations from a re-analysis of the deposited data

How the results depend on the processing

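With 9 libraries no gene passed under any alternative except array quality weights, which gave 2436 genes (1502 higher and 934 lower, from a fit of weights that did not fully converge), and leaving out the 4 libraries highest in spermatid transcripts (HR 2, ND 1, ND 3 and HP 1), which gave 1554 (893 and 661). Leaving out each library in turn gave 0 to 0 genes.

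With 7 libraries, against 843 genes, no filter on low values gave 293, HP and HR libraries alone 1970, array quality weights 2300, and leaving out the 4 libraries 1554, of which 807 are among the 843. Leaving out only HR 2 gave 0. Leaving out each library in turn gave 0 to 1922 genes, 0 without HP 1, HP 3, HR 1 or HR 3, and the lone HR library left without HR 1 or HR 3 is assumed to vary like the other groups. Pseudocount 0.1 gave 746, quantile normalization 737 (337 higher and 400 lower, 559 shared), libraries rescaled to the same sum 603, no variance trend 661 and the filter over 9 libraries 667.

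Deviations of same-numbered HP and HR libraries from their group means correlated at r = -0.70, -0.51 and 0.62, and those of HP 1 and HR 2 at 0.74. HP 1 and HR 2 were the HP and HR libraries highest in spermatid markers and entered these means. The check therefore cannot decide whether replicate numbers mark pairs or batches. With the replicate number as a block, 0 of 843 genes passed, and 3034 had an unadjusted p under 0.05.

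Of 109 genes named in the 7-library fit, 4 changed sign under some alternative. These were Ccr2 (-0.027 with the replicate block, and -0.14 to 0.31 as single libraries were left out), Fasn (-0.039 to 0.27 as single libraries were left out), Lep (-0.14 to 0.44) and Mertk (-0.039 with quantile normalization, -0.097 with the replicate block, -0.043 with array quality weights, -0.11 without HP 2, and -0.19 to 0.22 over the single libraries). The lowest of each range came without HR 1. None of these 4 genes passed in the main comparison. Endothelial marker sums also changed sign, from 0.12 on the log2 scale over all 6 libraries to -0.24 per 100 FPKM of adipocyte markers and -0.54 without HR 2, and ran from -0.54 to 0.48 over the fits that leave out 1 library. Macrophage sums ran from 1.46 to 2.65 (2.17 over all 6), and fibroblast sums from 0.44 to 1.60 (1.19), lowest without HR 2 in both.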

Other observations

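Among progenitor and adipogenic regulator genes, 2 of 20 rose in HP and 1 fell in the 7-library fit (median -0.34, against 0.37 with 9 libraries, where none passed). Of all genes tested in the 7-library fit, 4.21% rose and 2.25% fell. Pdgfra, a receptor of fat cell progenitors, rose by 0.65 ± 0.12 and Pi16, of a fibroblast-like progenitor, by 0.91 ± 0.18. Zfp423, a regulator of white fat cell identity, fell (-1.22 ± 0.17). Mest, an imprinted gene linked to fat expansion, stood at 335, 449 and 425 FPKM in HP and 517, 93.1 and 618 FPKM in HR and did not pass (-0.50 ± 0.17, adjusted p = 0.137 in limma).

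None of 11 mesothelial and none of 5 red cell genes passed, with medians of -0.56 and -0.34 (-0.34 and 0.0096 with 9 libraries). Of 2 liver genes, Apoa2 rose (1.66 ± 0.23) from 0.617, 0.394 and 0.487 FPKM in HR to 3.42, 4.94 and 3.49 FPKM in HP. Apoa2 passed the filter of 1 FPKM through the HP libraries alone. The single tested epididymis gene, Cst8, and the single tested skeletal muscle gene, Tnnc2, did not pass (1.35 and -0.26).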
